A study of Mus musculus with 6 samples.

Results

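The 42 genes described here encode the machinery of mitosis: the kinases and cyclins that start it, the proteins that condense chromosomes, the kinetochore that grips them, the spindle that moves them and the ring that cuts the cell apart. They were listed by name as a functional group, and all 42 were found among the 30042 genes of the table by their symbols, a rule that uses no measured value, although the group was chosen with earlier results of these data known. Messenger RNA was sequenced from 6 libraries of whole retina of wild-type mice of the strain label 129/Sv; C57/BL6J, 1 library at each of 6 ages: embryonic day 16.5 (E16.5) and the postnatal days (P) 1, 3, 7, 14 and 28. The labels name no treatment and no transgene, and the sources used here do not give the sex of the mice or the number of retinas per library. Values are RPKM, in which a gene's reads are divided by its length and by the library's total.

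A dividing cell enters mitosis when Cdk1 joins its B-type cyclins, the spindle checkpoint then holds it until every chromosome is attached, and the anaphase-promoting complex (APC/C) ends mitosis by marking cyclins and other proteins for destruction. In the mouse retina, progenitors divide before birth and during the first postnatal days, from the centre of the tissue outwards, and the neurons and Muller glia they leave behind do not normally divide again. Many genes of mitosis share promoter elements, the CCAAT box and the cell cycle genes homology region (CHR). Through the CHR the DREAM and MuvB complexes repress them in resting cells and activate them in dividing ones.

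Depth was estimated from the spacing of low values and lay between 12746423 reads at P1 and 28795991 at P14. A single read in a 2 kb gene was worth between 0.0174 RPKM at P14 and 0.0392 RPKM at P1. The 7 rod photoreceptor markers checked for tissue identity summed to 44.9, 92.5, 229, 1068, 5762 and 7854 RPKM from E16.5 to P28, and each of them reached 1 RPKM at some age. Because there was 1 library per age, no pair of ages was tested. The test asked whether a straight line fitted to log2(RPKM + 1) over the 6 ages in their order sloped up or down. It did not ask whether a profile was straight. The fit used limma, with Benjamini-Hochberg adjustment over all 15272 genes that reached 1 RPKM at some age. Its p-values thus reflect the scatter of single libraries around a line and not that of replicate retinas.

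All 42 mitotic genes reached 1 RPKM and were tested. Of these, 41 fell with age, 0 rose and 1, Spc25, did not pass, while 29.9% of all tested genes fell and 15.2% rose. The median slope of the 42 genes was -0.76 log2 units per age step, against -0.27 over all genes that fell and -0.06 over all tested genes. With a common library total computed without the 50 highest genes, 41 of the 42 still fell, whereas the calls over all genes were 2668 that fell and 3293 that rose, in place of 4571 and 2326. With median-of-ratios rescaling they were 3396 and 3110. Values of whole retina cannot tell fewer dividing cells from less RNA per cell.

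**Figure D1:**
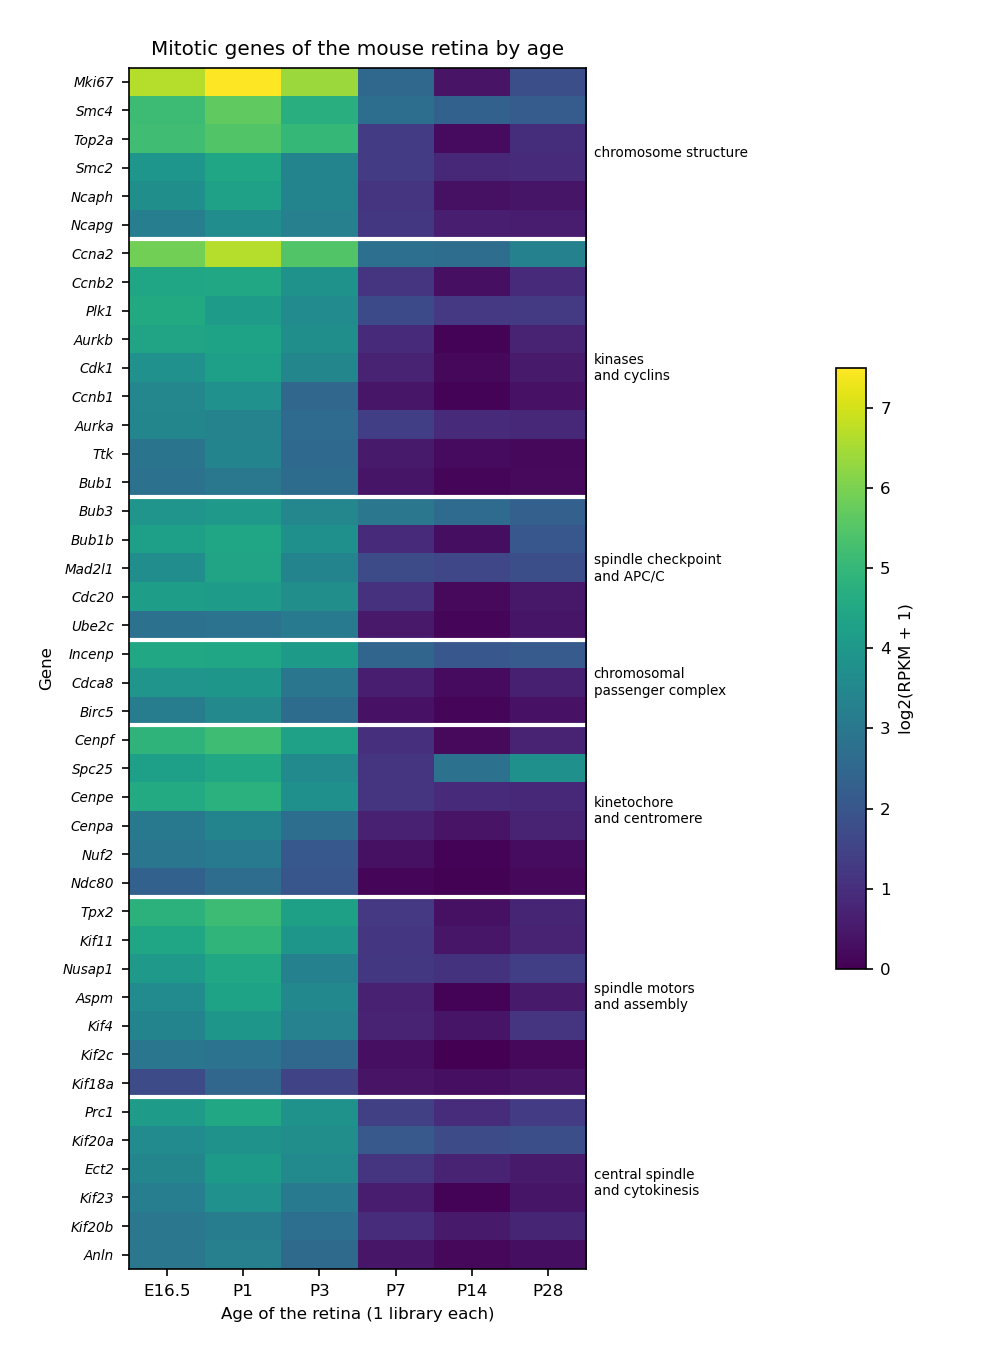
Level of each of the 42 mitotic genes, as log2(RPKM + 1) on a colour scale, in the 1 library of each age, with genes grouped by role. The columns E16.5, P1 and P3 are bright, the columns P7 to P28 are dark, and Spc25 stands out among kinetochore genes with 12.5 RPKM at P28.

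The shape was shared. The summed level of the 42 genes was 722, 977, 532, 64.2, 39.8 and 62.6 RPKM from E16.5 to P28, which is 0.0297% of all RPKM at P14, against 0.604% at P1. The highest of the 6 values lay at P1 for 35 genes, at E16.5 for 6 (Plk1, Aurka, Aurkb, Cdc20, Incenp and Kif2c) and at P3 for 1 (Ube2c). Of the 6, Plk1 alone was still lower at P1 than at E16.5 with a common total without the 50 highest genes, and all but Aurkb were with median-of-ratios rescaling. The lowest value lay at P14 for 34 genes, at P28 for 7 and at P7 for 1. No member was listed at 0 at any age, and none had a quadratic term that passed (limma, lowest adjusted p = 0.344, for Spc25), nor had any other tested gene. At an unadjusted p under 0.05, 2858 of all tested genes and 0 of the 42 had one. A step down between P3 and P7 also gives a quadratic term near 0, so these counts do not show that the profiles were straight.

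Since the members moved together, their promoters were searched for the letters of shared elements. RefSeq promoter windows of the build GRCm38.p6, 250 bases before to 50 after the start, were at hand for 36 of the 42 genes, and Smc4, Aurkb, Ccna2, Incenp, Kif20a and Tpx2 were the others. CHR letters, with TTTGAA as the usual form and the variant spelled TTCGAA, on either strand, occurred in 28 of these 36 promoters (77.8%) and in 15.3% of the promoters of 10533 other tested genes. CCAAT on either strand occurred in 26 (72.2%) against 43.0%, and in 2 or more copies in 18 of the 36 against 16.4%. CHR letters and CCAAT occurred together in 24 (66.7%) against 7.59%. The E2F letters, searched as TTCCCGC on either strand, then also as TTGGCGC and with the further form TTCGCGC, typical of genes of DNA replication, occurred in 7 (19.4%) against 16.8%. These are matches of letters only, and in windows of 150 bases before the start the CHR share was 33.3% against 7.19%.

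The 120 bases before the start are shown for 5 genes with CHR letters in that stretch (Cdk1, Top2a, Cdc20, Ube2c and Kif11) and for the members whose levels stood apart, Bub3 and Spc25. The choice was made after the matches were seen. Capitals mark CHR letters, where TTTGAA reads as the complement TTCAAA when it lies on the other strand, and the CCAAT box, which reads as the complement ATTGG there.
Cdk1, chr10:69352913-69353032, minus strand: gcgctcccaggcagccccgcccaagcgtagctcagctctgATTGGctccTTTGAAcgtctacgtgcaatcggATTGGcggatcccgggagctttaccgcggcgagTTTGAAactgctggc
Top2a, chr11:99024190-99024309, minus strand: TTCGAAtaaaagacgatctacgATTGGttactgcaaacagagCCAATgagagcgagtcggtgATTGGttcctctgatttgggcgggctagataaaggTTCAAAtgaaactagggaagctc
Cdc20, chr4:118437344-118437463, minus strand: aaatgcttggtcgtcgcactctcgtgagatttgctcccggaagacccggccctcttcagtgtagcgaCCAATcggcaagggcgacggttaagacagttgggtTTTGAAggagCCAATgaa
Ube2c, chr2:164769809-164769928, plus strand: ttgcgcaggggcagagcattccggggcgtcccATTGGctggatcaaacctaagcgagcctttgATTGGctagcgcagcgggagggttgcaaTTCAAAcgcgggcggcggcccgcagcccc
Kif11, chr19:37376262-37376381, plus strand: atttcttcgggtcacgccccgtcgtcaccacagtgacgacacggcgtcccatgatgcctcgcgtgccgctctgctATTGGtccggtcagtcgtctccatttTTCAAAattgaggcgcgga
Bub3, chr7:131560250-131560369, plus strand: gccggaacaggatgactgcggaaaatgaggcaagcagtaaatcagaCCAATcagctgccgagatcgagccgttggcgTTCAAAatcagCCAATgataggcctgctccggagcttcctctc
Spc25, chr2:69206214-69206333, minus strand: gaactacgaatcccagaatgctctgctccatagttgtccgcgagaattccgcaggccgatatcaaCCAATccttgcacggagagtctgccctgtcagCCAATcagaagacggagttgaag

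In these stretches the Cdk1 promoter holds 2 CHR matches and 2 CCAAT matches, and the Top2a promoter holds 2 and 3. Bub3, whose level changed least among the members that fell, holds 1 CHR match and 2 CCAAT matches. Spc25 holds 2 CCAAT matches here, and its CHR letters begin 24 bases after the start. No CHR letters were found in the windows of Nuf2, Kif18a, Nusap1, Ncaph, Cenpe, Mad2l1, Birc5 and Ccnb1, all of which fell with age.

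Chromosome structure genes gave the highest values. Mki67, whose protein coats mitotic chromosomes and is the usual marker of proliferation, was at 99.8, 181, 81.9, 4.63, 0.309 and 2.505 RPKM from E16.5 to P28. It was the highest member at each of the first 3 ages and had the steepest slope (-1.41 ± 0.27, SE, limma adjusted p = 0.00584). Top2a, the topoisomerase that untangles sister chromatids, was at 36.1, 43.4, 30.7, 1.46, 0.156 and 0.962 RPKM (slope -1.16 ± 0.22, adjusted p = 0.00507). Smc4, a core subunit of condensin, which compacts chromosomes, was at 34.5, 49.6, 25.3, 5.58, 4.06 and 3.55 RPKM (slope -0.76 ± 0.12, adjusted p = 0.00315). Mki67 at P14 had thus 0.171% of its P1 level, the lowest share of any member, while Smc4 kept 8.18%. Smc2, the partner of Smc4, and the condensin I subunits Ncapg and Ncaph also fell, with slopes of -0.80, -0.69 and -0.88, and had 3.82%, 4.57% and 1.46% of their P1 level at P14.

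All 9 kinases and cyclins fell. Ccna2, the cyclin of S phase and mitotic entry, was at 59.5, 101, 43.7, 5.74, 5.37 and 8.75 RPKM from E16.5 to P28 and was the second highest member (slope -0.80 ± 0.19, adjusted p = 0.0115). Its values at P7 and P14 lay close together, while those of the mitotic B cyclins did not. Ccnb1 was at 10.1, 13.01, 4.54, 0.383, 0.0504 and 0.301 RPKM (slope -0.82 ± 0.14, adjusted p = 0.00353), and Ccnb2 at 20.1, 21.5, 13.1, 1.17, 0.225 and 0.860 RPKM (slope -0.94 ± 0.16, adjusted p = 0.00384). Cdk1, the kinase that both cyclins activate, was at 12.99, 17.8, 9.97, 0.683, 0.111 and 0.452 RPKM (slope -0.89 ± 0.16, adjusted p = 0.00463). At P14 the estimated reads were 459 for Ccna2 but 14 for Cdk1 and 4 for Ccnb1.

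Among the Aurora and Polo kinases Plk1 was highest at E16.5 under each scaling. This kinase, which drives mitotic entry and centrosome maturation, was at 22.4, 16.3, 11.3, 2.22, 1.39 and 1.44 RPKM from E16.5 to P28 (slope -0.77 ± 0.10, adjusted p = 0.00190). It was the only member whose P1 value was below that at E16.5 beyond counting error, at 0.730 times (95% interval 0.648 to 0.822). Aurka, the kinase of the spindle poles, was at 9.89, 9.27, 5.16, 1.61, 0.864 and 0.770 RPKM (slope -0.62 ± 0.07, adjusted p = 0.00164) and was lower at every step of the series. Its first and last steps were within counting error, with ratios of 0.937 for P1 over E16.5 (95% interval 0.783 to 1.12) and 0.891 for P28 over P14 (0.503 to 1.58), and the first turned to 1.04 with the common total. Aurkb, the kinase of the chromosomal passenger complex, was at 19.7, 19.6, 12.5, 0.913, 0.0471 and 0.660 RPKM (slope -0.97 ± 0.17, adjusted p = 0.00382). From a higher start Aurkb thus reached a lower level than Aurka at P14, 0.240% against 9.33% of the P1 level. The checkpoint kinases Ttk and Bub1 were at 9.36 and 7.01 RPKM at P1, and fell with slopes of -0.72 and -0.69.

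Checkpoint and APC/C genes held the member with the smallest slope among those that fell. Bub3, a checkpoint protein that also has a role in splicing in human cells, was at 14.1, 15.6, 10.05, 6.91, 5.13 and 3.94 RPKM from E16.5 to P28 (slope -0.37 ± 0.05, adjusted p = 0.00219). At P7 it had 44.2% of its P1 level, where the median of the 42 genes was 5.10%. Bub1b, which encodes the checkpoint protein BubR1, was at 17.7, 20.1, 12.7, 0.850, 0.211 and 3.12 RPKM (slope -0.75 ± 0.22, adjusted p = 0.0252). Its fall was not called without the libraries of E16.5 (adjusted p = 0.0816), P1 (0.0814) or P14 (0.0658), nor with age in log2 days (0.0830). Mad2l1, the checkpoint protein that holds Cdc20 inactive, kept 10.3% of its P1 level at P14 and fell with a slope of -0.56. Cdc20, the mitotic activator of the APC/C, was at 17.4, 16.2, 12.05, 1.11, 0.144 and 0.411 RPKM (slope -0.94 ± 0.14, adjusted p = 0.00280). Ube2c, an ubiquitin-conjugating enzyme of the APC/C, was highest at P3, at 7.58 RPKM against 6.28 at P1. These values rest on an estimated 174 and 77 reads in libraries of different depth, and no counting interval was computed for this step. Ube2c fell with a slope of -0.65 (adjusted p = 0.0100).

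The chromosomal passenger complex brings Aurkb to centromeres and to the central spindle, and its subunits differed in what was left. Incenp, the scaffold, was at 21.1, 20.5, 15.9, 4.41, 3.06 and 3.42 RPKM from E16.5 to P28 (slope -0.58 ± 0.09, adjusted p = 0.00313). Birc5, which encodes survivin, was at 8.08, 10.5, 5.26, 0.299, 0.0695 and 0.281 RPKM (slope -0.76 ± 0.14, adjusted p = 0.00461). Cdca8, which encodes borealin, was at 14.1, 14.7, 6.73, 0.562, 0.154 and 0.587 RPKM (slope -0.85 ± 0.14, adjusted p = 0.00357). The scaffold thus kept 14.9% of its P1 level at P14, against 0.663% for Birc5 and 1.05% for Cdca8.

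Of the 6 kinetochore and centromere genes 5 fell and Spc25 did not pass. Cenpf, a large outer kinetochore protein, was at 28.2, 35.2, 18.6, 1.02, 0.146 and 0.686 RPKM from E16.5 to P28 (slope -1.11 ± 0.19, adjusted p = 0.00397). Cenpe, the kinesin that moves chromosomes to the spindle equator, was at 22.8, 26.5, 12.7, 1.17, 0.862 and 0.788 RPKM (slope -0.94 ± 0.15, adjusted p = 0.00289). Both fell, but Cenpe kept 3.26% of its P1 level at P14 and Cenpf 0.415%. Cenpa, the histone that marks centromeres, was at 0.326 RPKM at P14, against 9.39 at P1, with a slope of -0.64 (adjusted p = 0.00654).

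Spc25 was the only member that did not pass. It encodes a subunit of the NDC80 complex, which links kinetochores to microtubules and contains Ndc80, Nuf2, Spc24 and Spc25. Spc25 was at 17.7, 21.7, 10.8, 1.22, 6.15 and 12.5 RPKM from E16.5 to P28, so that the values of the last 3 ages went upwards. Ndc80 was at 4.07, 5.46, 3.06, 0.1003, 0.0254 and 0.114 RPKM, and Nuf2 at 6.70, 7.64, 3.19, 0.266, 0.0491 and 0.187 RPKM. Both were lower at P14 than at P7. Their ratios of P28 over P14 were 4.49 for Ndc80 (95% counting interval 0.386 to 40.3) and 3.82 for Nuf2 (0.959 to 27.7). These rest on an estimated 2 and 3 reads for Ndc80 and 3 and 6 for Nuf2, at P14 and P28. Spc24, which is not among the 42 genes and was looked up after these values were seen, was at 5.44, 6.55, 3.96, 0.318, 0.0607 and 0.307 RPKM. Spc25 at P14 was 5.03 times its P7 value, and at P28 2.04 times the value at P14, with a 95% counting interval of 1.70 to 2.42 and an estimated 245 reads at P28 and 271 at P14. Its slope was -0.28 ± 0.22 (limma adjusted p = 0.317), with adjusted p between 0.0761 and 0.595 over all alternatives, against slopes of -0.59 for Ndc80 and -0.70 for Nuf2, both of which fell. No other gene overlaps the exons of Spc25 in the reference annotation.

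**Figure D2:**
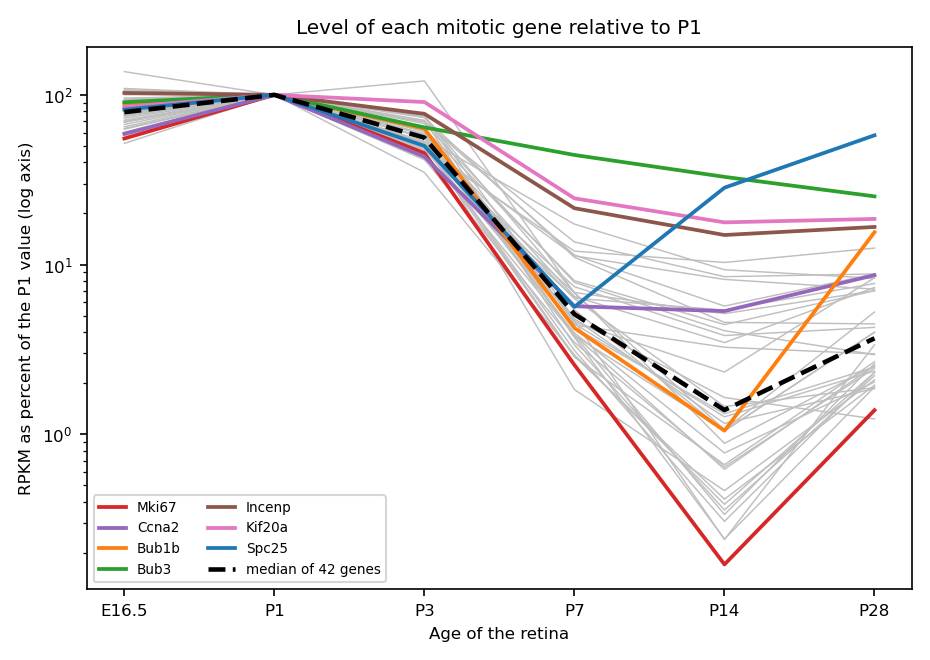
RPKM of each of the 42 genes as percent of its P1 value, on a log axis, over the 6 ages, with 7 genes in colour, the others in grey and their median as a dashed line. The median line reaches 5.10% at P7 and 1.39% at P14, Bub3 keeps 32.9% at P14, and Spc25 stands at 57.8% at P28.

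All 7 genes of spindle motors and assembly fell. Kif11, the motor that pushes spindle poles apart, was at 20.1, 28.8, 14.7, 1.29, 0.365 and 0.679 RPKM from E16.5 to P28 (slope -0.98 ± 0.17, adjusted p = 0.00372). Tpx2, which activates Aurka on the spindle, was at 27.2, 34.3, 18.2, 1.36, 0.267 and 0.698 RPKM (slope -1.08 ± 0.18, adjusted p = 0.00341). These were the members of this role with the highest mean level, and both were highest at P1. Aspm, the spindle pole protein whose human counterpart is mutated in microcephaly, was at 0.0602 RPKM at P14, against 19.6 at P1 (slope -0.89). Kif18a, which dampens chromosome movements, had the lowest sum over the 6 ages of all 42 genes, at 2.38, 4.599, 1.91, 0.315, 0.236 and 0.323 RPKM (slope -0.41 ± 0.10, adjusted p = 0.0136). The depolymerising kinesin Kif2c, the chromokinesin Kif4 and the microtubule bundler Nusap1 fell with slopes of -0.70, -0.70 and -0.73.

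All 6 genes of the central spindle and cytokinesis fell. Prc1, which bundles the microtubules of the central spindle, was at 16.7, 21.0, 13.2, 1.69, 0.931 and 1.47 RPKM from E16.5 to P28 (slope -0.77 ± 0.14, adjusted p = 0.00497). Kif20a, a kinesin of the central spindle, was at 11.3, 13.3, 12.1, 3.27, 2.36 and 2.47 RPKM (slope -0.49 ± 0.10, adjusted p = 0.00640). Kif20a was thus the member with the highest share left at P14 in this group, 17.7% of the P1 level, against 0.337% for Kif23, a subunit of centralspindlin. Ect2, the exchange factor that switches on RhoA at the cleavage site, and Anln, the anillin of the contractile ring, fell with slopes of -0.77 and -0.71, and Kif20b with a slope of -0.59.

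The libraries were made from double-stranded cDNA, per the labels' protocols, and the sources used here name no use of strand, so reads of a member and of an overlapping gene on the other strand cannot be told apart. In the reference annotation 10 members share exon bases with a protein-coding gene on the other strand, and for 5 of them the longest shared stretch is at least 400 bases. Kif20a shares 977 bases with Cdc23, an APC/C subunit that was at 5.22 RPKM at P14, and Ccna2 shares 428 bases with Exosc9, which was at 2.403 RPKM at P14. Prc1 with Rccd1, Kif4 with Pdzd11 and Ncapg with Lcorl are the others, whose partners were at 2.401, 2.56 and 3.12 RPKM at P14. Of these 5 members Ccna2 was at 5.37 RPKM at P14 and the others between 0.343 (Kif4) and 2.36 (Kif20a), while Incenp, Smc4 and Bub3 were above 3 RPKM and have no such partner. What these overlaps add to the levels was not tested.

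The step at birth came first in the series. At P1 36 of the 42 genes (85.7%) were higher than at E16.5, where 49.3% of all tested genes were. The median difference, P1 minus E16.5, was 0.32 on the log2(RPKM + 1) scale, against -0.00 over all tested genes. By counting error alone 30 members were higher at P1, 1 was lower and 11 had an interval that includes equality. None was past a 2-fold difference, where 1.05% of all tested genes were higher and 2.23% lower, and 7 were past 1.5-fold. The largest ratios, P1 over E16.5, were 1.93 for Kif18a (95% counting interval 1.53 to 2.46), 1.81 for Mki67 (1.77 to 1.85), 1.74 for Aspm (1.63 to 1.85) and 1.70 for Ccna2 (1.61 to 1.78). The interval of a ratio covers counting error only. Over the same step the erythroid genes summed to 2.45 RPKM at P1, against 139 at E16.5, and the lens genes to 15.8 RPKM at P1, against 29.2 at E16.5, and their part in it was not tested.

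**Figure D3:**
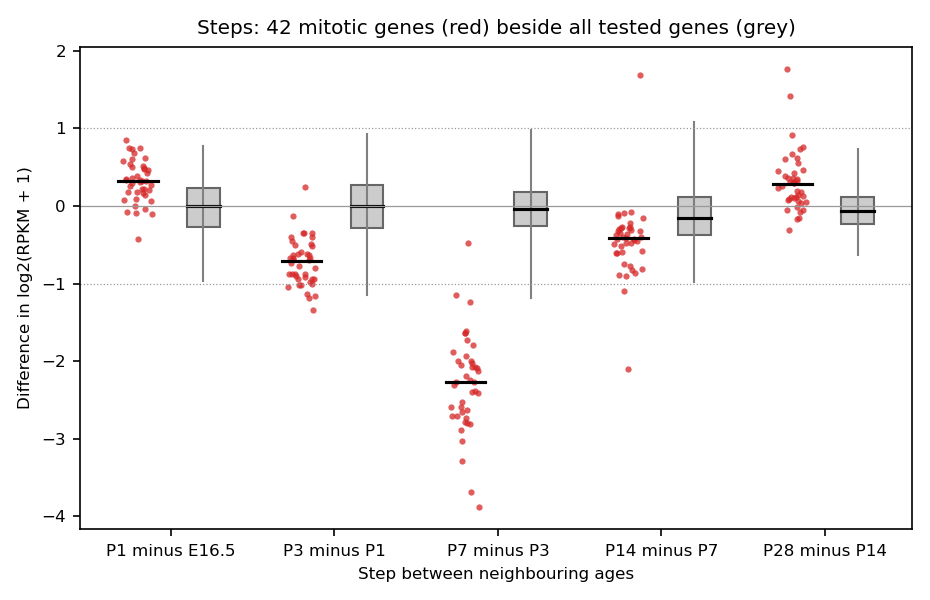
Difference in log2(RPKM + 1) between neighbouring ages, later minus earlier, for the 42 mitotic genes (red points, black bar at their median) beside all 15272 tested genes (grey box for the middle 50%, line for the middle 95%, black bar at the median). The red points lie above the grey median at P1 minus E16.5 and far below it at P7 minus P3, where their median is -2.27.

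After P1 the levels were lower. At P3 41 of 42 were below their P1 level, where 50.4% of all tested genes were, and 8 were past a 2-fold difference, where 3.52% of all tested genes were. That count was 3 with a common total without the 50 highest genes. The lens genes summed to 0.908 RPKM at P3, where 3 of 6 were at 0, against 15.8 at P1, where 1 was. This step also goes between libraries with different forms of title, wtRetina1 at E16.5, P1 and P28 and retinaWT at P3, P7 and P14. The part of either in the P3 levels was not tested. At P7 41 of 42 (97.6%) were below their P3 level by 2-fold or more, where 3.54% of all tested genes were, and Bub3 was the exception. The median difference, P7 minus P3, was -2.27, with -3.88 for Mki67 at one end and -0.48 for Bub3 at the other. On the log2(RPKM + 1) scale P3 to P7 was the largest step downwards for 40 of the 41 genes that fell, against 24.1% of all genes that fell. The steps differ in length in days, and this scale compresses falls under 1 RPKM. As a ratio of RPKM, Aurkb fell more from P7 to P14 (0.0516) than from P3 to P7 (0.0733), with 3 estimated reads at P14.

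By P7 19 of the 42 genes were under 1 RPKM, by P14 33 and at P28 29. Between P7 and P14 41 genes were lower at P14, where 65.9% of all tested genes were, and the median difference was -0.42. Lower past 2-fold were 2 genes, Mki67 and Top2a, where 2.4% of all tested genes were, and higher past 2-fold was Spc25 alone, where 2.92% were. With a pseudocount of 0.1 in place of 1 the lower genes past 2-fold numbered 9, and the median difference was -1.13. The estimated reads at P14 ranged between 1 for Kif2c and 504 for Smc4 with a median of 28.5, so that 11 members had fewer than 10 reads and their levels at this age are imprecise.

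At P28 35 of the 42 genes (83.3%) were higher than at P14, where 40.3% of all tested genes were. By counting error alone 20 were higher at P28, 1 was lower (Bub3) and 21 had an interval that includes equality. Past 2-fold on the log2(RPKM + 1) scale were Bub1b and Mki67, where 1.19% of all tested genes were. That count was 4 with a pseudocount of 0.1 and 0 with a minimum of 5 RPKM. Bub1b was at 3.12 RPKM at P28 and 0.211 at P14, a ratio of 14.8 (95% counting interval 9.54 to 24.7), and Mki67 was at 2.505 RPKM at P28 and 0.309 at P14, a ratio of 8.10 (6.36 to 10.3). Aurkb had a ratio of 14.03 from 17 estimated reads at P28 and 3 at P14 (3.68 to 67.7), Kif4 one of 3.59 (2.502 to 5.28) and Ccna2 one of 1.63 (1.41 to 1.88).

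The median share of the E16.5 level was 4.23% at P28 and 2.00% at P14. The highest shares at P28 were those of Spc25 (70.6%), Bub3 (27.9%), Kif20a (21.9%) and Mad2l1 (20.8%). Among the 37 members that were 8-fold or more lower at P14 than at E16.5, 83.8% were higher at P28 than at P14. Among the 631 other genes that met the same condition with at least 2.38 RPKM at E16.5, 73.2% were, with a median of 7.55% of the E16.5 level at P28 and 6.33% at P14. Both sets were picked by low values in the 1 library of P14, and such a pick by itself favours higher values at P28. This step, like that of P1 to P3, goes between the 2 forms of title. The 6 lens genes measured as markers of another tissue summed to 26.3 RPKM at P28 and 1.13 at P14, none of them at 0 at either age. Much of the lens sum was Cryaa, at 20.7 RPKM at P28 and 0.351 at P14, and Bfsp1 was lower at P28 (0.196 and 0.320). The 6 erythroid genes summed to 16.1 RPKM at P28, where 2 were at 0, and to 12.9 at P14, where 1 was. Markers of 2 cell classes that can divide after birth had lower sums at P28. The 12 endothelial and pericyte genes summed to 32.04 RPKM at P28 and 69.4 at P14, and 9 genes of microglia and macrophages to 5.95 and 8.49. Much of the first sum was Kdr, at 12.6 and 21.5 RPKM, and Rgs5, at 7.88 and 22.5. In these 2 lists Flt1 (3.51 and 3.43) and Tmem119 (0.539 and 0.330) alone were higher at P28. The 6 astrocyte genes summed to 21.3 RPKM at P28 and 23.7 at P14, with Gfap and Pax2 higher at P28. No endothelial, pericyte, microglia, macrophage or astrocyte marker was at 0 in any library. The part of any of these, or of the form of title or the depth, in the P28 levels was not tested.

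**Figure D4:**
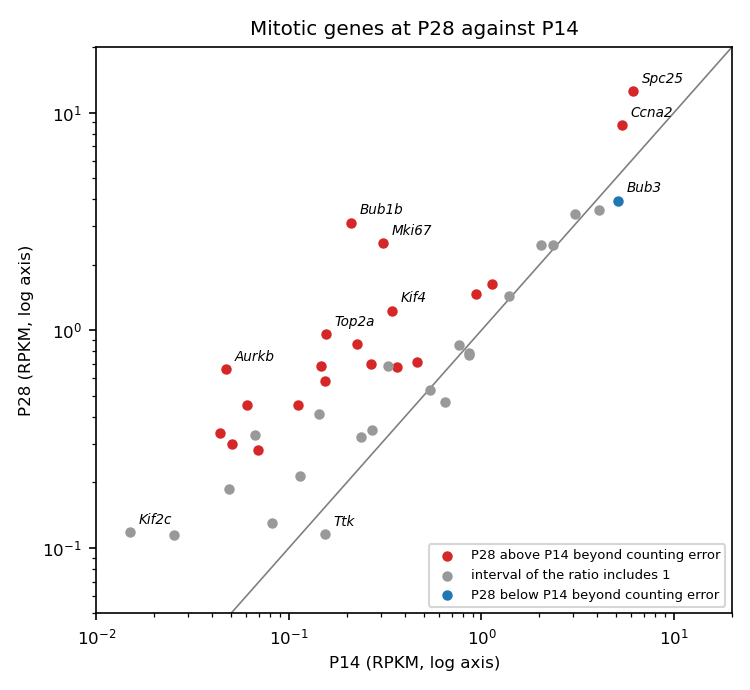
Level of each of the 42 genes at P28 (vertical, RPKM, log axis) against P14 (horizontal, RPKM, log axis), with the line of equal values. Red points are the 20 genes whose 95% counting interval of the ratio lies above 1, the blue point is Bub3, and the 21 grey points have intervals that include 1.

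Other genes of mitosis, a list of 38 tested genes outside the 42, gave these counts: 37 fell, 0 rose and 1 did not pass. Over all tested genes 29.9% fell and 15.2% rose, and the median slope of the 38 was -0.67. Pbk, a mitotic kinase, was at 21.3, 41.0 and 0.0776 RPKM for E16.5, P1 and P14 (slope -1.08), and Ckap2l, a spindle protein, at 21.3, 31.7 and 0.165 (slope -1.02). At the other end Ckap5, a microtubule polymerase that also acts in interphase, was at 13.8, 17.8 and 9.14 RPKM (slope -0.22, a call lost under 4 of the 15 alternatives), and Cdkn3, a phosphatase of Cdk proteins, did not pass (slope -0.16, adjusted p = 0.177), though it did under 2 alternatives. Of 26 other kinetochore genes 23 fell, 0 rose and 3 did not pass. Pmf1 fell with a slope of -0.69 and Cenpo with one of -0.15, a call lost under 11 of the 14 alternatives that test it, with adjusted p up to 0.213. With a filter at 5 RPKM the kinetochore genes that fell numbered 15, since the others that fell never reached 5 RPKM and left the test. Zwint, whose rat counterpart also binds the synaptic protein SNAP25, was at 32.2, 35.6 and 28.8 RPKM for E16.5, P1 and P14 and did not pass (slope -0.08, adjusted p = 0.279).

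Condensin II and cohesin also act on chromosomes outside mitosis. Of 17 further condensin and cohesin genes 9 fell, 0 rose and 8 did not pass, where 29.9% of all tested genes fell. At P14 the median of the 42 mitotic genes was 1.39% of a gene's highest value, and that of these 17 genes 46.5%. Ncapd2, the remaining subunit of condensin I, fell, at 49.97, 50.8 and 3.42 RPKM for E16.5, P1 and P14 (slope -0.88, adjusted p = 0.00228), and so did Cdca5, which encodes the cohesin protector sororin (slope -0.81). The subunits of condensin II, named after their values were seen, were as follows. Ncapg2 was at 7.58, 11.0 and 0.483 RPKM at these ages (slope -0.67, adjusted p = 0.00509), Ncaph2 at 10.4, 9.83 and 6.37 (slope -0.17, adjusted p = 0.0310, lost under 6 alternatives) and Ncapd3 at 5.93, 8.55 and 6.199 (slope -0.03, adjusted p = 0.655). The cohesin loader subunit Mau2 and the acetyltransferase Esco1 did not pass, with slopes of 0.09 and 0.01.

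The APC/C is also at work outside mitosis, where Fzr1 in place of Cdc20 activates it. Of its 15 tested genes 11 fell, 0 rose and 4 did not pass, where 29.9% of all tested genes fell. With the common total 7 of the 15 fell, where 2668 of all tested genes did. Fbxo5, an inhibitor of the APC/C, was at 22.5, 26.2 and 0.468 RPKM for E16.5, P1 and P14 (slope -0.83, adjusted p = 0.00640), and the small subunit Anapc13 at 48.3, 42.8 and 9.68 (slope -0.52). Anapc10 and Cdc26 did not pass (slopes 0.01 and -0.09). Fzr1, the activator known as Cdh1, was named after its value was seen and was at 16.8, 10.7 and 7.87 RPKM (slope -0.22, adjusted p = 0.00925, lost under 2 alternatives). At E16.5 Cdc20 and Fzr1 were thus at similar levels, 17.4 and 16.8 RPKM, and at P14 Cdc20 was at 0.144 and Fzr1 at 7.87 RPKM.

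All kinesins among the 42 genes fell. Among 20 tested motors of axons, synapses and cilia, 4 rose and 2 fell, 14 did not pass, and the median slope was -0.04. Over all tested genes 15.2% rose and 29.9% fell. Dync1i1, a neuronal dynein chain, was at 0.168, 0.212 and 5.74 RPKM for E16.5, P1 and P14 and rose (slope 0.55, adjusted p = 0.00286), and Kif21b rose with a slope of 0.27 (adjusted p = 0.0463), a call lost under 7 of the 15 alternatives, with adjusted p up to 0.127. Kif3a, a motor of cilia and axons, fell with a slope of -0.28 (adjusted p = 0.00605). Kif19a was at 8.31, 9.60, 26.5, 33.8, 5.48 and 1.07 RPKM over the 6 ages and did not pass (slope -0.36, adjusted p = 0.277). With a term for the form of title it fell (slope -0.55, adjusted p = 0.0176), and the motors that fell numbered 4. They numbered 1 with a filter at 5 RPKM, since Kif7, at most 2.56 RPKM, then left the test.

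**Figure D5:**
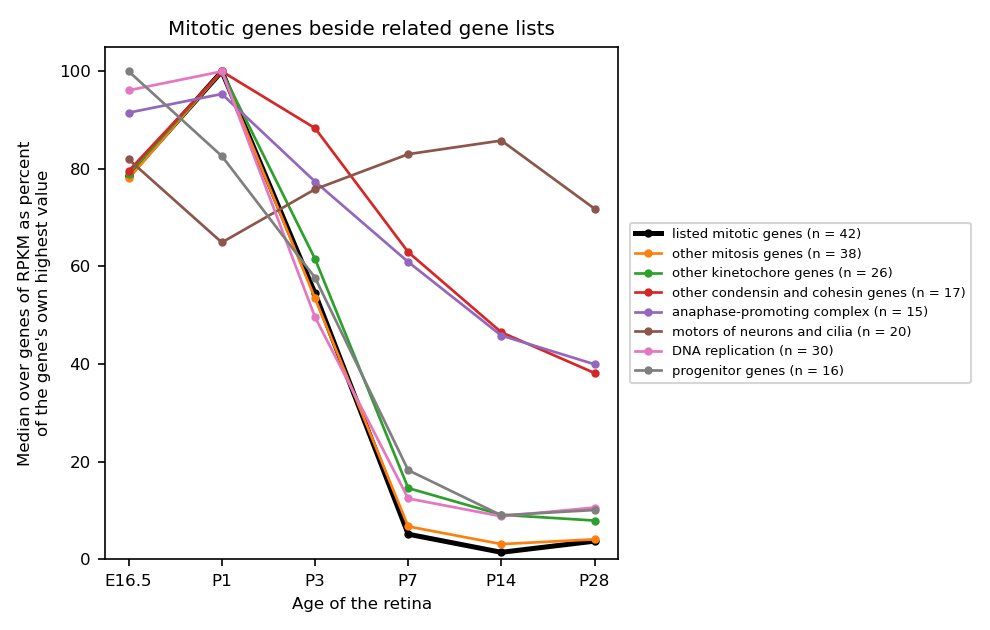
Median over the tested genes of each list of the RPKM value as percent of the gene's own highest value, by age, for the 42 mitotic genes (black) and 7 related lists. At P14 the medians are 1.39% for the mitotic genes, 8.77% for DNA replication, 46.5% for further condensin and cohesin genes and 85.8% for motors of neurons and cilia.

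Genes of DNA replication and of retinal progenitors fell as well. Of 30 replication genes 28 fell and 2 did not pass, where 29.9% of all tested genes fell. The median difference, P1 minus E16.5, was 0.32 for the mitotic genes and 0.04 for the replication genes. Mcm6, a subunit of the replicative helicase, was at 45.6, 37.6 and 1.00 RPKM for E16.5, P1 and P14 (slope -1.07), and Rrm2, which makes deoxynucleotides, had a slope of -0.98. Gins2 and Orc1 did not pass (slopes -0.04 and -0.13). Of 16 progenitor genes 15 fell and 1 did not pass, and the median difference at birth was -0.27. Ccnd1, the cyclin of G1 in retinal progenitors, had a slope of -1.41, and Pax6 one of -0.30. Differences between the lists were not tested.

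The 10 genes outside the 42 whose profile lay nearest to their median profile, by Euclidean distance of centred log2(RPKM + 1) over the 6 ages, included Stil, E2f8, Kif15, Sgol1, Kif18b, Tacc3, Gas2l3, Iqgap3 and Cdca5. The distances of the 10 were between 0.157 and 0.372 log2 units. All of them fell, which follows from the pick, since distance and slope use the same values. Stil, which is needed to build centrioles, was at 6.90, 10.04, 5.43, 0.271, 0.0643 and 0.165 RPKM from E16.5 to P28. E2f8, an atypical E2F repressor, was at 7.97, 10.4, 5.45, 0.237, 0.0275 and 0.210 RPKM. Within the 42 genes Mki67, Spc25, Bub3 and Top2a lay farthest from the median profile, at 3.30, 2.60, 2.05 and 2.03 log2 units.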

How the data were processed

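Messenger RNA of whole mouse retina, 1 library per age, was purified on beads and copied into double-stranded cDNA, per the labels' protocols, sequenced and summarised by the authors as deposited RPKM values for 30042 genes. The submitters' processing notes name bcl2fastq 2.17.1.14 and the build mm9. The sources used here give no aligner, counter or use of strand. The 42 genes and all lists were chosen with earlier results of these data known. From the deposited RPKM, log2(RPKM + 1) was computed here for the 15272 genes that reached 1 RPKM at some age. A straight line over age order was fitted with limma 3.58.1 in R 4.3.3, with an intensity trend, 4 residual degrees of freedom, Benjamini-Hochberg adjustment and a threshold of 0.05. The slope fit was run on simulated straight-line profiles with less scatter than observed, which does not test it on profiles with a step. Neighbouring ages were compared without a test, past 2-fold where the higher value was at least 1 RPKM. Reads were estimated from the steps between low values and transcript lengths of the build GRCm38.p6, which also gave the exon overlaps, and between 66.2% and 68.7% of low values came out whole within 0.05 of a read. Intervals are exact, at 95%, and cover counting error only. From each related list the 2 lowest and 2 highest slopes were named, and some genes that this rule or the profile distance picks are not reported here. Promoters are RefSeq windows of GRCm38.p6, used for sequence only. Alternatives changed the pseudocount, filter, scaling, age scale, title term, trend and libraries.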

Additional observations from a re-analysis of the deposited data

How the results depend on the processing

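Of the 42 mitotic genes 40 or 41 fell under each of the 15 alternatives to the age trend, and the call lost was that of Bub1b, except that a filter at 5 RPKM left Kif18a out of the test. No paired analysis was possible because each age has 1 library. Over all tested genes, the number that fell was 2668 with a common total without the 50 highest genes, 2853 for the later 3 ages against the earlier 3, and 2953 to 4247 when 1 library was left out, the lowest without P14. The number that rose was 1403 with a filter at 5 RPKM and 1538 to 2179 when 1 library was left out, again lowest without P14. Of genes in the related lists 4 rose, and 2 to 4 when 1 library was left out, lowest without P14. With a fold of 1.5 in place of 2, 7 members were higher at P1 than at E16.5, 31 lower at P3 than at P1, 8 lower at P14 than at P7 and 5 higher at P28 than at P14. The common total gave 3 members lower at P3. A pseudocount of 0.1 gave 9 lower at P14 and 4 higher at P28, with median differences of -1.13 and 0.76. A minimum of 5 RPKM in the higher value left 0 in both of these. In windows of 150 bases CHR shares were 33.3% and 7.19%, and the E2F share of other genes 9.96%. Slopes of genes that did not pass changed sign. With the common total they were 0.00118 for Zwint, 0.0416 for Gins2 and 0.0445 for Ncapd3, and with median-of-ratios 0.0137 for Gins2 and 0.0201 for Ncapd3. For later against earlier ages Esco1 had -0.0305. Anapc10 had -0.00806 on a scale of log2 days, and -0.00538 once the title form was a term. Leaving out 1 library gave -0.00748 to 0.195 for Mau2, -0.0665 to 0.0360 for Esco1, -0.0353 to 0.0577 for Anapc10, -0.679 to 0.0670 for Kif19a and -0.0937 to 0.00334 for Ncapd3. The causes were not tested. Rescaling moved the median of all genes by 0.12 (P14 minus P7, median-of-ratios) and 0.11 (P3 minus P1, common total). Counts of members higher by any amount, under these rescalings chosen after seeing the data, were 37 and 41 at P1 and 36 and 36 at P28. Depth limits the values at P14, where 11 members had under 10 estimated reads.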
